A study of Mus musculus with 11 samples.

Results

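The collagen genes were taken as every gene of the count table whose mouse symbol has the form Col, a type number, the letter a and a chain number. This gave 42 of the 18756 genes of the table. They were sorted by the kind of structure the chains build: 11 fibrillar chains, 6 basement membrane chains, 8 FACIT chains (collagens that sit on the surface of fibrils), 4 transmembrane chains and 3 network chains, with 6 beaded filament chains, 2 multiplexins, 1 anchoring fibril chain and Col28a1 beside them. RNA sequencing had been done on 11 end-point skin tumours of C57BL/6 mice from an engineered melanoma model. The tumours carried GNA11 Q209L (n = 2), GNA11 Q209L together with a Bap1 knockout (GNA11 Q209L Bap1 KO, n = 5) or BRAF V600E together with a Bap1 knockout (BRAF V600E Bap1 KO, n = 4). GNA11 Q209L is an activating change of a G protein alpha subunit, BRAF V600E an activating change of a kinase, and Bap1 a tumour suppressor that removes ubiquitin in the nucleus. Age, sex, litter and the promoter of the recombinase are not in the labels, and each library is 1 tumour with no separate count of its cell types. The labels do not say that the tumours came from separate animals, so p-values measure only the spread between these samples.

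Collagens are secreted or membrane proteins whose chains wind into triple helices. Types I, III and V form the fibres of the dermis and are made mostly by fibroblasts, type IV forms the sheet under epithelia and around vessels, and types VII and XVII tie the epidermis to the dermis. Chains are modified and folded in the endoplasmic reticulum, trimmed outside the cell, crosslinked by lysyl oxidases and read by receptors such as the collagen-binding integrins and the discoidin domain receptors.

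The sequences just upstream of 4 members are shown because these members mark the 2 directions of the main difference described further on: Col1a2 and Col3a1 are abundant fibrillar chains that were lower in GNA11 Q209L Bap1 KO than in BRAF V600E Bap1 KO, and Col10a1 and Col6a4 are the 2 members that were higher. The Col1a2 call held in 8 of 20 alternative fits, and its sign turned without BRAF V600E Bap1 KO replicates 3 and 4. Each run holds the 250 bases before the annotated start, 5′ to 3′ on the strand of the gene, from RefSeq on GRCm38.p6. Capitals mark letters that match a motif on either strand. The motifs were the CCAAT box, searched by that name's letters, the GC box, searched as GGGCGG, the TATA box, searched as TATAAA, and an E-box, searched as CATGTG. A further E-box form, CACGTG, was searched too.
Col1a2, chr6:4505368-4505617, plus strand: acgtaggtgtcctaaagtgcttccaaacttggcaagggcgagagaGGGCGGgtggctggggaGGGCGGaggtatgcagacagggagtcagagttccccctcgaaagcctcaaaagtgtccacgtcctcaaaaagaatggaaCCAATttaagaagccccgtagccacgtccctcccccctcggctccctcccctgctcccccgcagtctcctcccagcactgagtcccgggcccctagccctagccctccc
Col3a1, chr1:45311288-45311537, plus strand: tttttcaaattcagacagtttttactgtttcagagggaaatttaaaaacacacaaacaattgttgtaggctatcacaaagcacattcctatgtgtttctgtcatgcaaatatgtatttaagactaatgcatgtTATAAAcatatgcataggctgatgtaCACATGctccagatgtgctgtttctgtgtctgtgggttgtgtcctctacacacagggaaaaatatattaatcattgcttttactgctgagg
Col10a1, chr10:34389731-34389980, plus strand: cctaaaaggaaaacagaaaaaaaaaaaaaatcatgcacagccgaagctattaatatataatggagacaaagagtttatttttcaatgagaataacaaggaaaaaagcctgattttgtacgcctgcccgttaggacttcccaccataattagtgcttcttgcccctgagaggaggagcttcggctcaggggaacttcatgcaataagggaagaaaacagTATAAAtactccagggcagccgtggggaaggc
Col6a4, chr9:106096692-106096941, minus strand: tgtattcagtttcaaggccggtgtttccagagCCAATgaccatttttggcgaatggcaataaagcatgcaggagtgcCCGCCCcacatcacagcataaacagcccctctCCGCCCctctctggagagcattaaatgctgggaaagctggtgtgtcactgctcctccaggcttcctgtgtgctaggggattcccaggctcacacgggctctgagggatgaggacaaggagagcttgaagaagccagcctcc
The Col1a2 window held 1 CCAAT match, 109 bases before the start, and 2 GC box matches. In Col3a1 there was 1 TATAAA match at 117 bases and 1 CATGTG match at 91 bases. Col10a1 held a single TATAAA match at 32 bases, and Col6a4 held 1 CCAAT match and 2 GC box matches. Windows were found for 34 of the 42 members (37 windows). The GC box letters stood in 59.5% of the members' windows and in 33.0% of 32536 windows of the same length over the genome, the CCAAT letters in 35.1% and 33.8%, and the TATAAA letters in 13.5% and 12.3%. CATGTG stood in 8.11% of the members' windows against 12.3%, and CACGTG in 0 of 37 against 6.04%. A match is a run of letters and not a measured binding site.

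Libraries held 18338082 to 81035135 counts, and 3 counts correspond to between 0.0337 and 0.166 CPM (gene counts scaled to a common library size with the TMM method). The gene-level count of Bap1 need not show the loss of single exons. It did not separate GNA11 Q209L Bap1 KO from GNA11 Q209L (log2 fold change 0.127, adjusted p = 0.920 by edgeR's quasi-likelihood test). It was 111 ± 36.8 CPM (SD, n = 2) in GNA11 Q209L, 121 ± 29.7 CPM (n = 5) in GNA11 Q209L Bap1 KO and 60.9 ± 7.27 CPM (n = 4) in BRAF V600E Bap1 KO. BRAF V600E Bap1 KO reached at most 71.3 CPM, below the lowest other library at 85.1 CPM. By the same test GNA11 Q209L Bap1 KO was higher than BRAF V600E Bap1 KO (log2 fold change 0.996, adjusted p = 0.00811). GNA11 Q209L against BRAF V600E Bap1 KO did not pass (0.869, adjusted p = 0.0601). The 10 melanocyte markers summed to between 88148 and 119480 CPM in the 7 libraries with GNA11 Q209L and to 148 to 720.2 CPM for BRAF V600E Bap1 KO, and none of the 10 was at 0. BRAF V600E Bap1 KO replicates 3 and 4 stood apart from replicates 1 and 2. Across the 40 tested collagen genes, Pearson's r of log2 CPM was 0.953 between replicates 1 and 2, 0.952 between replicates 3 and 4, and 0.804 to 0.866 over the other 4 pairs. These r values describe pairs of libraries, since genes are not independent replicates. Collagen gene calls that rest on replicates 3 and 4 are given with and without them, a choice made after the data were seen. Lists of other genes are given with all libraries only. Replicates 1 and 2 of GNA11 Q209L Bap1 KO share an animal or tumour number in their titles. Xist stood at 358 and 198 CPM in GNA11 Q209L. It had 0.706, 0.995, 695, 0.43 and 1.42 CPM in GNA11 Q209L Bap1 KO, and 99.8, 0.920, 1224 and 0.262 CPM in BRAF V600E Bap1 KO. In the first comparison the Xist level thus went with the Bap1 label except in replicate 3, so the 2 cannot be told apart there.

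The mean collagen level was lowest in GNA11 Q209L Bap1 KO, and the highest libraries belonged to the other genotypes. All 42 members summed to 15687 and 6926 CPM in GNA11 Q209L, 5478, 5262, 2963, 2068 and 3018 CPM for GNA11 Q209L Bap1 KO, and 5487, 3599.6, 29820.1 and 17274 CPM for BRAF V600E Bap1 KO. GNA11 Q209L Bap1 KO lay below both GNA11 Q209L libraries in every replicate and overlapped BRAF V600E Bap1 KO, whose replicates 3 and 4 were far above replicates 1 and 2. In a bulk tumour, fewer cells of a type and less RNA per cell cannot be told apart. Of the 42 members, 25 had their highest CPM value in BRAF V600E Bap1 KO replicate 3 and 8 in replicate 4. The lowest value fell in GNA11 Q209L Bap1 KO replicate 5 for 11 members and in replicate 4 for 8. BRAF V600E Bap1 KO replicates 1 and 2 held the lowest value of 5 and 6 members. Libraries without a count tied for the lowest value of Col4a6, Col6a5, Col9a1 and Col22a1, and each tied member is counted under only a single library. The matching shares of all genes were not determined, so these counts do not set collagens apart from other genes.

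**Figure D1:**
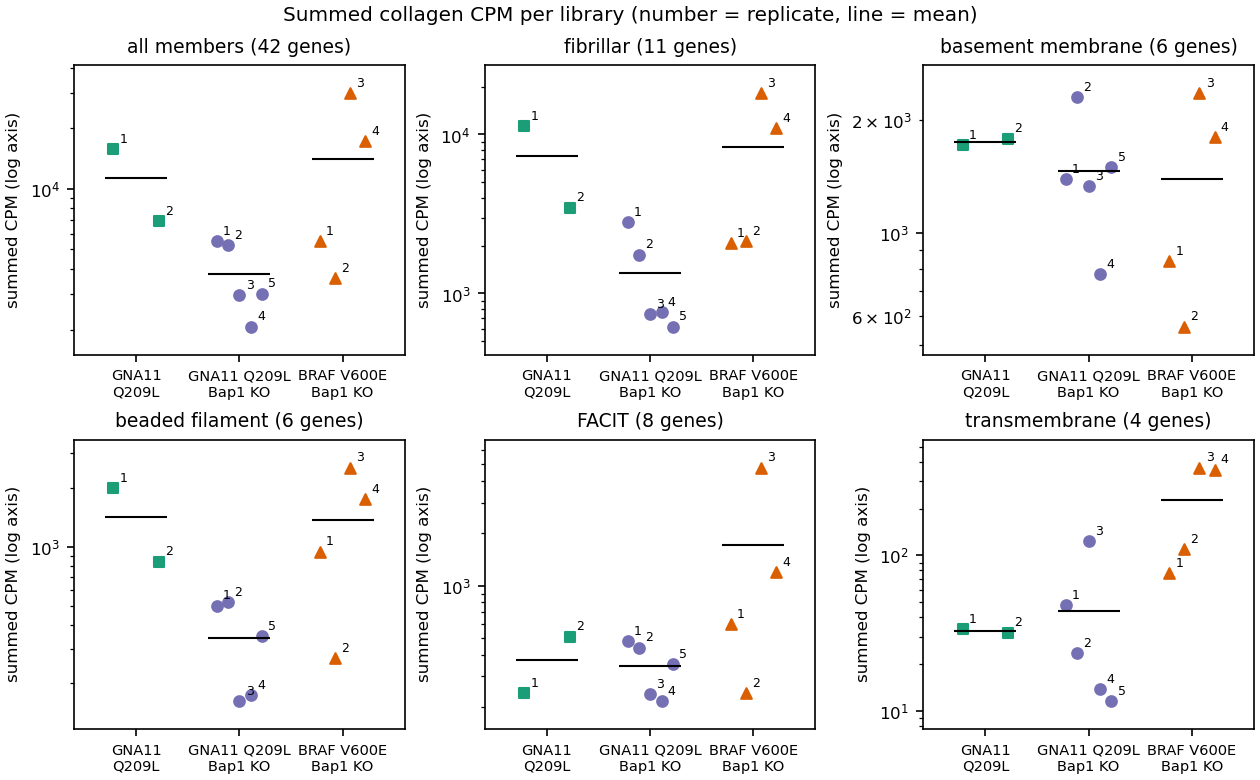
Summed CPM per library on log axes for all 42 collagen genes and for 5 classes, with genotypes along each horizontal axis, replicate numbers beside the points and a line at each genotype's mean. The fibrillar sum of the 5 GNA11 Q209L Bap1 KO libraries lies between 618 and 2806 CPM, while BRAF V600E Bap1 KO spans 2071 to 18165 CPM.

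The make-up of the collagen pool is described without a test. Col1a1, Col1a2 and Col3a1 together took 65.7 and 37.8% of collagen CPM in GNA11 Q209L, 38.5, 25.4, 12.9, 19.8 and 9.32% in GNA11 Q209L Bap1 KO and 27.4, 48.3, 51.6 and 54.8% in BRAF V600E Bap1 KO. The basement membrane pair Col4a1 and Col4a2 took 10.9 and 25.7%, 25.3, 43.7, 44.8, 37.1 and 49.5% and 14.5, 14.9, 7.86 and 10.2% in the same order. The share of this pair was above that of the fibrillar trio in 4 of 5 libraries of GNA11 Q209L Bap1 KO and in no other library. Per length (CPM per kb of exon, mean over libraries), Col4a2 ranked first and Col4a1 second of the 42 in GNA11 Q209L Bap1 KO, at 134 and 76.3 CPM per kb, ahead of Col1a1 at 42.1. In GNA11 Q209L and in BRAF V600E Bap1 KO the order per length was led by Col3a1 (267 and 334 CPM per kb) and Col1a1 (263 and 279). The per-library ranges of these leading genes overlap within each genotype, so their order is one of means.

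Bap1 knockout under the same labelled oncogene was the first comparison. None of the 40 tested collagen genes passed for GNA11 Q209L Bap1 KO against GNA11 Q209L with edgeR's quasi-likelihood test (adjusted p under 0.05 over 17350 genes), where 0.0288% of all genes did (0.00576% higher and 0.0231% lower). At an unadjusted p under 0.05 there were 10 of 40 members, against 11.4% of all genes, and DESeq2 and limma voom also called 0 members. The members' median log2 fold change was -0.72, against -0.0040 over all genes, and 30 of the 40 values were negative. With the Xist level as a covariate the median was -0.57, against -0.042 over all genes. In that setting 3 members had an unadjusted p under 0.05, and the matching share of all genes was not determined. The genotypes did not overlap for 10 members (16.6% of all genes): 9 lower in GNA11 Q209L Bap1 KO (9.01% of all genes) and 1 higher, Col10a1 (7.58%). Without GNA11 Q209L replicate 1, which leaves 1 library of that genotype, the median was -0.54, over 42 tested members and not 40 (0.11 over all genes). Single genes moved more, in both directions. Col1a1 went from -2.64 to -1.23 and Col3a1 from -2.93 to -1.35, while Col11a1 went from -2.67 to -3.43.

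Oncogene under the shared Bap1 label was the second comparison. Of the 40 tested members, 22 passed for GNA11 Q209L Bap1 KO against BRAF V600E Bap1 KO, where 41.2% of all genes did. At an unadjusted p under 0.05 there were 26, against 51.3% of all genes. The 20 lower ones stand against a background of 24.7% of genes called lower, and the 2 higher ones, Col10a1 and Col6a4, against 16.5% called higher. The median was -1.88, against -0.26 over all genes. Groups did not overlap for 11 members (31.8% of all genes), 9 lower (17.2%) and 2 higher (14.7%). Without BRAF V600E Bap1 KO replicates 3 and 4, 11 of 38 members were called (30.9% of all genes), 5 higher and 6 lower, 8 of them among the 22, and the median was 0.02. Without replicates 1 and 2, 28 of 40 were called (37.7% of all genes), 2 higher and 26 lower, and the median was -2.52. Col4a1, Col5a1, Col5a3, Col6a2 and Col15a1 were among the 26 and were not called with all libraries. A set of 6 calls held in each of the 20 alternatives run: Col10a1 and Col6a4 higher, and Col4a5, Col4a6, Col12a1 and Col18a1 lower. Another 5 (Col3a1, Col6a1, Col7a1, Col9a3 and Col25a1) held with each library left out in turn and not in all alternatives.

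The third comparison, in which GNA11 Q209L was set against BRAF V600E Bap1 KO, changes oncogene and Bap1 at once. It called 2 of 40 members, Col6a4 higher and Col4a5 lower, where 15.2% of all genes passed (9.27% higher and 5.93% lower). At an unadjusted p under 0.05 there were 12, against 36.5%, and 10 did not overlap, 2 higher and 8 lower, against 41.9%, 19% and 22.9% of all genes. DESeq2 called 9 members, 1 higher and 8 lower, where it called 31.3% of all genes. All 3 comparisons share libraries, so their fold changes are given side by side and not set against each other as separate evidence.

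**Figure D2:**
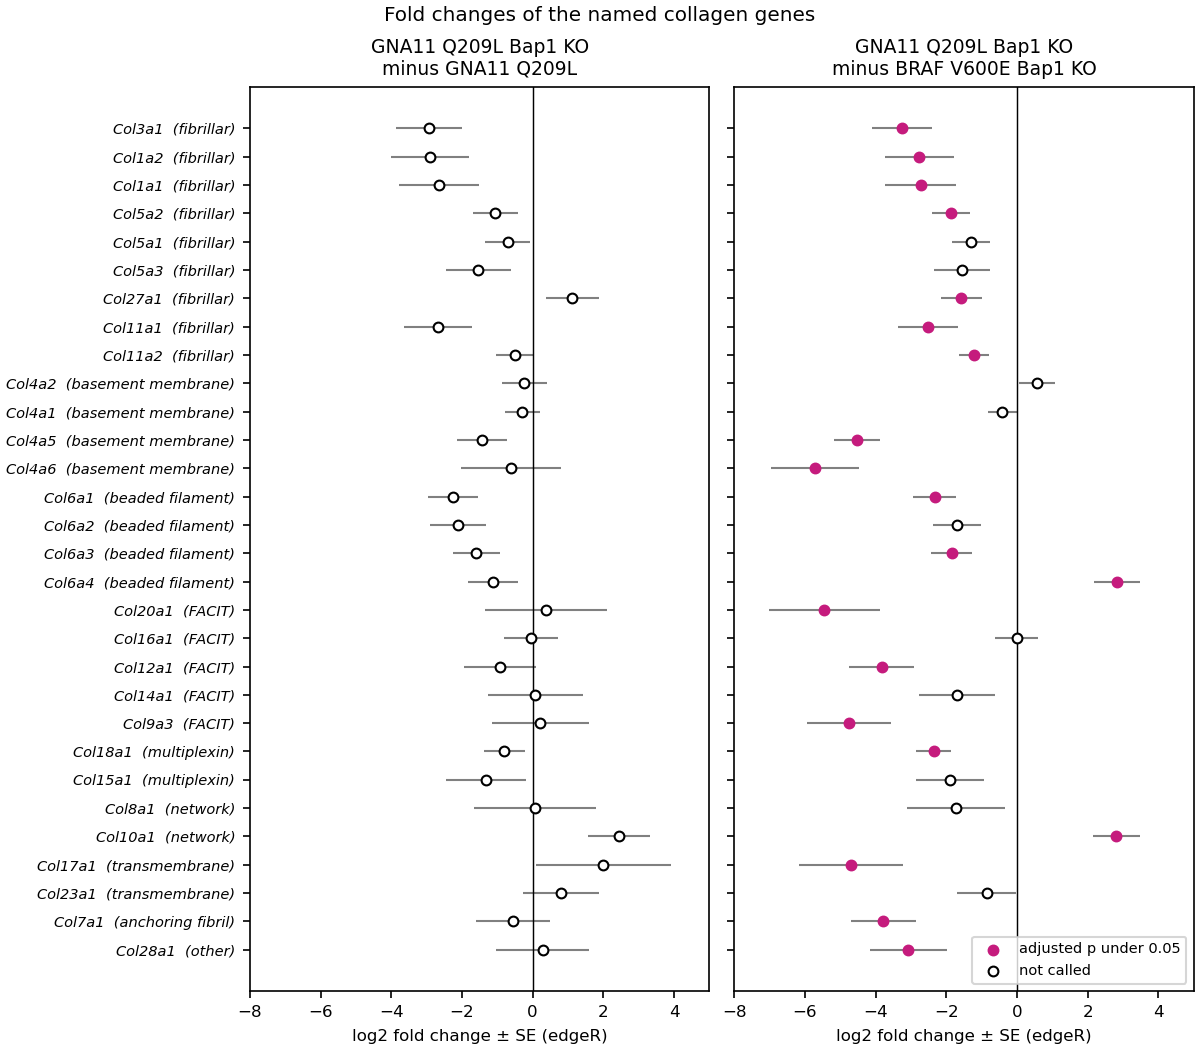
Log2 fold change with its standard error (edgeR, all 11 libraries) of the 30 named collagen genes, grouped by class, for GNA11 Q209L Bap1 KO minus GNA11 Q209L (left) and minus BRAF V600E Bap1 KO (right). Filled points have an adjusted p under 0.05; there are none on the left, and on the right Col6a4 and Col10a1 are the filled points above 0.

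Fibrillar collagens build the tensile fibres of the dermis. In the second comparison 8 of the 11 were lower in GNA11 Q209L Bap1 KO and none higher (24.7% of all genes lower). The median log2 fold change was -2.43. Without BRAF V600E Bap1 KO replicates 3 and 4, 0 of 10 tested were called (30.9% of all genes) and the median was -0.84. The class summed to 11240 and 3472 CPM in GNA11 Q209L, 2806, 1755, 738, 764 and 618 CPM for GNA11 Q209L Bap1 KO, and 2071, 2144, 18165 and 10920 CPM for BRAF V600E Bap1 KO. Col3a1 (ENSMUSG00000026043), the type III chain of skin and vessels, stood at 4366 and 879 CPM in GNA11 Q209L, 729, 529, 95.6, 238 and 131 CPM in GNA11 Q209L Bap1 KO and 964, 1209, 7332 and 3616 CPM for BRAF V600E Bap1 KO. All 5 GNA11 Q209L Bap1 KO libraries lay below all others. Col3a1 was 9.52-fold lower than in BRAF V600E Bap1 KO (log2 fold change -3.25 ± 0.84 (SE), adjusted p = 0.0127). Against GNA11 Q209L the value was -2.93 ± 0.93 with adjusted p = 0.294, and it was -1.35 (adjusted p = 0.947) without GNA11 Q209L replicate 1. Without BRAF V600E Bap1 KO replicates 3 and 4 the second value was -1.67 (adjusted p = 0.131).

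Type I collagen, the main fibre protein of skin and bone, joins Col1a1 and Col1a2 chains. Col1a1 (ENSMUSG00000001506) was measured at 2803 and 646 CPM in GNA11 Q209L, 715, 394, 137, 69.3 and 64.2 CPM for GNA11 Q209L Bap1 KO, and 331, 264, 3569 and 3148 CPM for BRAF V600E Bap1 KO. Col1a2 (ENSMUSG00000029661) was measured at 3141 and 1092 CPM in GNA11 Q209L, 663, 412, 149.6, 102 and 86.1 CPM for GNA11 Q209L Bap1 KO, and 209.3, 265, 4492 and 2698 CPM for BRAF V600E Bap1 KO. Both chains were lowest in GNA11 Q209L Bap1 KO replicates 4 and 5 and highest in BRAF V600E Bap1 KO replicates 3 and 4 and GNA11 Q209L replicate 1, and replicates 1 and 2 of BRAF V600E Bap1 KO lay within the GNA11 Q209L Bap1 KO range. The test put Col1a1 6.62-fold lower in GNA11 Q209L Bap1 KO than in BRAF V600E Bap1 KO (log2 fold change -2.73 ± 1.00 (SE), adjusted p = 0.0491) and Col1a2 6.78-fold lower (log2 fold change -2.76 ± 0.98 (SE), adjusted p = 0.0430). These calls were the least steady of the class: Col1a1 held in 6 of 20 alternatives and Col1a2 in 8. Without BRAF V600E Bap1 KO replicates 3 and 4 they stood at -0.12 (adjusted p = 0.931) and 0.24 (adjusted p = 0.838). Against GNA11 Q209L the values were -2.64 ± 1.13 (adjusted p = 0.413) and -2.91 ± 1.10 (adjusted p = 0.361).

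Type V chains start and limit the growth of type I fibrils. Levels of Col5a1 were 289 and 248 CPM in GNA11 Q209L, 261, 145, 112, 147 and 159.9 CPM for GNA11 Q209L Bap1 KO, and 189, 92.3, 778 and 573 CPM for BRAF V600E Bap1 KO. Its partner Col5a2 had 342 and 190.3 CPM in GNA11 Q209L, 237, 83.7, 175, 90.4 and 51.9 CPM for GNA11 Q209L Bap1 KO, and 259, 187, 813 and 615 CPM for BRAF V600E Bap1 KO. For both, BRAF V600E Bap1 KO replicates 3 and 4 were the highest of all libraries, and the genotypes overlapped. Col5a2 was 3.67-fold lower in GNA11 Q209L Bap1 KO than in BRAF V600E Bap1 KO (log2 fold change -1.88 ± 0.54 (SE), adjusted p = 0.0195), while Col5a1 did not pass (log2 fold change -1.31 ± 0.53 (SE), adjusted p = 0.0687). Without BRAF V600E Bap1 KO replicates 3 and 4, Col5a2 stood at -0.83 (adjusted p = 0.254) and was not called. Col5a3, the less common of the type V chains, had 264 and 374 CPM in GNA11 Q209L, 147, 169, 45.3, 81.3 and 108 CPM for GNA11 Q209L Bap1 KO, and 57.9, 63.8, 1003 and 171 CPM for BRAF V600E Bap1 KO. BRAF V600E Bap1 KO replicate 3 stood far above its group, and the test was not passed (log2 fold change -1.56 ± 0.78 (SE), adjusted p = 0.131). Both GNA11 Q209L libraries were above all 5 of GNA11 Q209L Bap1 KO for Col5a3 (log2 fold change -1.53 ± 0.92 (SE), adjusted p = 0.583).

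The remaining fibrillar chains are best known from cartilage and bone and were less abundant here. Col11a1 spanned 6.25 to 33.8, 0.608 to 6.82 and 6.61 to 44.8 CPM in GNA11 Q209L, GNA11 Q209L Bap1 KO and the BRAF V600E tumours. It was lower in the second comparison (log2 fold change -2.51 ± 0.85 (SE), adjusted p = 0.0366). Its partner Col11a2 spanned 1.43 to 3.51, 0.968 to 2.06 and 2.84 to 5.82 CPM in the same order and was also lower, with no overlap (log2 fold change -1.22 ± 0.43 (SE), adjusted p = 0.0416). Col27a1 spanned 3.83 to 18.8, 10.5 to 47.1 and 42.1 to 122 CPM and was lower with overlap (log2 fold change -1.57 ± 0.57 (SE), adjusted p = 0.0464); its value against GNA11 Q209L was the only positive one of the class (1.12 ± 0.75, adjusted p = 0.633). Col2a1, the main chain of cartilage, reached at most 2.67 CPM and was lower (log2 fold change -2.56 ± 0.70, adjusted p = 0.0161); it is named although its low level keeps it outside the naming rule. Col24a1 reached 6.30 CPM and did not pass (adjusted p = 0.0689). Without BRAF V600E Bap1 KO replicates 3 and 4, Col11a1 stood at -1.46 (adjusted p = 0.2195) and Col11a2 at -1.155 (adjusted p = 0.108). In that setting Col27a1 stood at -0.85 (adjusted p = 0.3355), and Col2a1 was not tested.

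**Figure D3:**
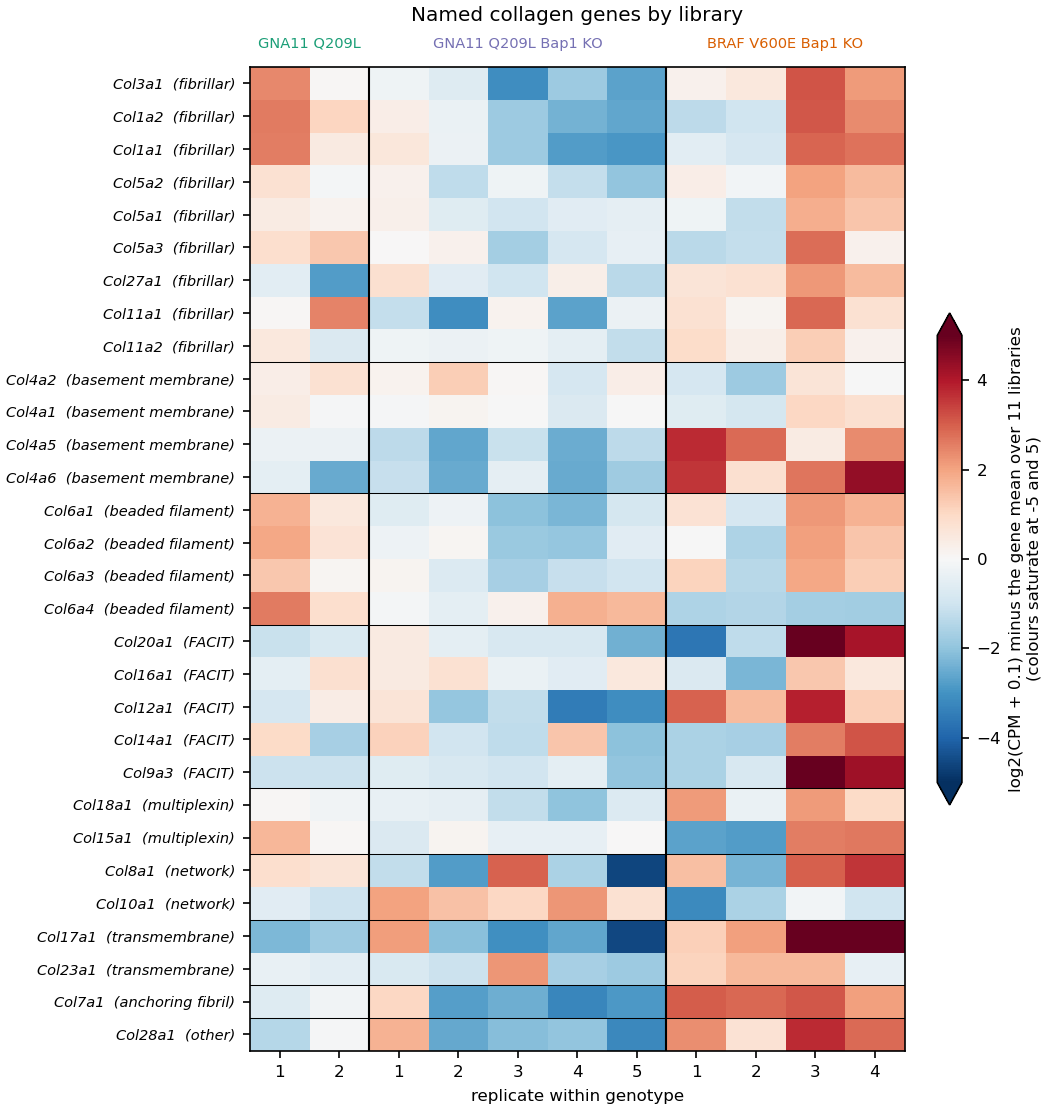
The 30 named collagen genes in the 11 libraries, as log2(CPM + 0.1) minus each gene's mean over the libraries, grouped by class, with columns numbered by replicate within genotype. Red is above and blue below the gene's mean, and the columns of BRAF V600E Bap1 KO replicates 3 and 4 are red for most fibrillar chains while replicates 1 and 2 are pale or blue. Colours saturate at -5 and 5.

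Basement membrane collagen split by chain. The abundant pair Col4a1 and Col4a2 passed in no comparison, while the epithelial pair Col4a5 and Col4a6 was lower in GNA11 Q209L Bap1 KO than in BRAF V600E Bap1 KO. Col4a1 (ENSMUSG00000031502), found in nearly all basement membranes, had 815 and 581 CPM in GNA11 Q209L, 593, 669, 602, 375 and 609 CPM for GNA11 Q209L Bap1 KO, and 399, 337, 1244 and 1064 CPM for BRAF V600E Bap1 KO. Col4a2 (ENSMUSG00000031503), its partner in the same triple helix, had 891 and 1196 CPM in GNA11 Q209L, 792, 1632, 726, 392 and 884 CPM for GNA11 Q209L Bap1 KO, and 394, 201, 1101 and 700.4 CPM for BRAF V600E Bap1 KO. The genotypes overlapped for both. In the second comparison Col4a1 stood at -0.42 ± 0.41 (adjusted p = 0.424) and Col4a2 at 0.56 ± 0.52 (adjusted p = 0.395), and in the first at -0.29 ± 0.50 (0.887) and -0.24 ± 0.63 (0.934). In the second, without BRAF V600E Bap1 KO replicates 1 and 2, Col4a1 was called at -0.98 (adjusted p = 0.0272). The starts of the pair lie 21 bases apart in RefSeq.

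Col4a5 (ENSMUSG00000031274) and Col4a6 (ENSMUSG00000031273) are X-linked neighbours whose products meet in the basement membranes of epithelia, the epidermis among them. Col4a5 had 2.28 and 2.27 CPM in GNA11 Q209L, 1.09, 0.387, 1.24, 0.428 and 1.07 CPM for GNA11 Q209L Bap1 KO, and 38.5, 20.9, 3.80 and 15.0 CPM for BRAF V600E Bap1 KO. All 7 libraries with GNA11 Q209L were below all 4 with BRAF V600E, and BRAF V600E Bap1 KO replicate 1 was the highest. Col4a5 was 23.0-fold lower in GNA11 Q209L Bap1 KO than in BRAF V600E Bap1 KO (log2 fold change -4.53 ± 0.65 (SE), adjusted p = 0.00105), and 8.59-fold lower in GNA11 Q209L (log2 fold change -3.10 ± 0.89 (SE), adjusted p = 0.0424). The first of these held in all 20 alternatives, with the Xist level as a covariate among them, and the second in 9 of 20. Col4a6 had 0.314 and 0 CPM in GNA11 Q209L, 0.163, 0, 0.325, 0 and 0.0691 CPM for GNA11 Q209L Bap1 KO, and 6.75, 0.920, 3.59 and 12.1 CPM for BRAF V600E Bap1 KO. It was 52.4-fold lower in GNA11 Q209L Bap1 KO (log2 fold change -5.71 ± 1.25 (SE), adjusted p = 0.00633); 2 of those libraries had 0 counts and the others 3 to 6, so the size of this fitted fold depends on the prior count. Without BRAF V600E Bap1 KO replicates 3 and 4 the values were -5.16 (adjusted p = 0.000160) for Col4a5 and -5.17 (adjusted p = 0.0142) for Col4a6. Col4a3 and Col4a4, the chains that join Col4a5 in kidney, ranged over the libraries up to 3.41 and 10.8 CPM and did not pass.

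Ratios of partner chains, taken within a library, need no scaling between libraries. The counts of Col4a2 over those of Col4a1 gave 1.09 and 2.06 in GNA11 Q209L, 1.34, 2.44, 1.21, 1.04 and 1.45 in GNA11 Q209L Bap1 KO and 0.986, 0.597, 0.885 and 0.658 in BRAF V600E Bap1 KO. Every library with GNA11 Q209L was above 1 and every library with BRAF V600E below it. Col6a1 over Col6a2 gave 1.27 and 1.29, then 1.15, 1.14, 1.26, 1.15 and 1.17, then 2.47, 2.39, 1.55 and 1.88. These too did not overlap between the 7 libraries with GNA11 Q209L and the 4 with BRAF V600E, in a narrow band for the former. Col1a1 over Col1a2 ran from 0.592 to 1.58 and Col5a1 over Col5a2 from 0.494 to 3.08, with overlap between all genotypes. The libraries with GNA11 Q209L and with BRAF V600E also overlapped for Col3a1 over Col1a1, Col4a4 over Col4a3, Col6a3 over Col6a1 and Col8a1 over Col8a2. They overlapped for Col4a5 over Col4a6 too, where Col4a6 had counts. How often ratios of other gene pairs do not overlap was not determined. The ratios are of counts and are not corrected for length, so only their change between libraries can be read, and they were not tested.

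**Figure D4:**
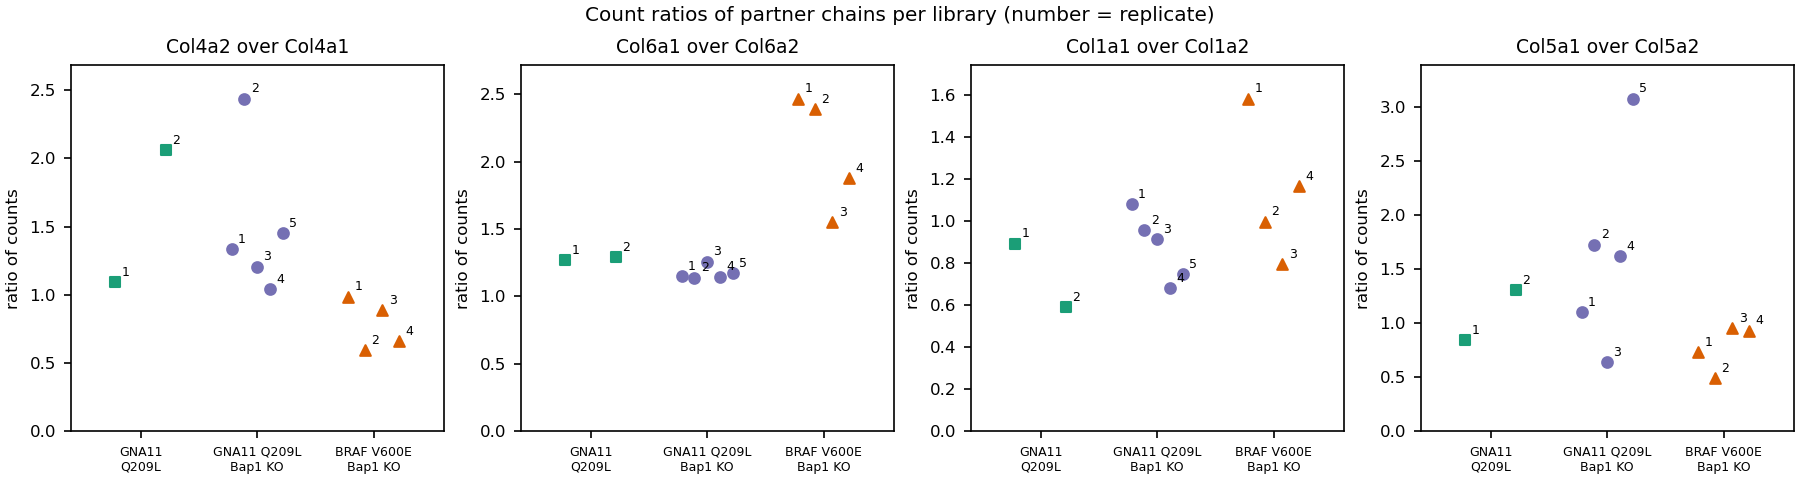
Count ratios within each library for 4 pairs of partner chains, on linear axes from 0, with replicate numbers beside the points and genotypes along the axis. For Col4a2 over Col4a1 and Col6a1 over Col6a2 the 4 BRAF V600E Bap1 KO points do not overlap the 7 points with GNA11 Q209L; for the other pairs they do.

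Type VI collagen forms beaded filaments close to cell surfaces from 1 chain each of Col6a1, Col6a2 and an alpha 3-like chain. Col6a1 (ENSMUSG00000001119) had 882 and 382 CPM in GNA11 Q209L, 176, 226, 63.6, 55.0 and 144 CPM for GNA11 Q209L Bap1 KO, and 441, 150.2, 1184 and 901 CPM for BRAF V600E Bap1 KO. Col6a2 had 695 and 296 CPM in GNA11 Q209L, 153, 198, 50.6, 48.0 and 123 CPM for GNA11 Q209L Bap1 KO, and 179, 62.9, 763 and 479 CPM for BRAF V600E Bap1 KO. Col6a3 had 387 and 159 CPM in GNA11 Q209L, 167, 92.8, 47.1, 67.5 and 78.0 CPM for GNA11 Q209L Bap1 KO, and 322, 56.7, 569.7 and 354 CPM for BRAF V600E Bap1 KO. GNA11 Q209L Bap1 KO replicates 3 and 4 were lowest for Col6a1 and Col6a2, and GNA11 Q209L lay above all GNA11 Q209L Bap1 KO libraries for these 2 chains. In the second comparison Col6a1 was 5.03-fold lower (log2 fold change -2.33 ± 0.62 (SE), adjusted p = 0.0141) and Col6a3 3.60-fold lower (log2 fold change -1.85 ± 0.58 (SE), adjusted p = 0.0271), while Col6a2 missed the threshold (log2 fold change -1.70 ± 0.68 (SE), adjusted p = 0.0657). Without BRAF V600E Bap1 KO replicates 3 and 4 the 3 chains stood at -1.18 (adjusted p = 0.164), -1.09 (adjusted p = 0.213) and -0.10 (adjusted p = 0.913). In the first comparison the class had the lowest median of the larger classes (-2.11 over 5 tested). Col6a1 stood at -2.25 ± 0.71 (adjusted p = 0.293) there. Without GNA11 Q209L replicate 1 the class median was -0.38, over 6 tested with Col6a6 among them. Col6a1, Col6a2 and Col6a3 then stood at -1.52, -1.37 and -0.81.

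Col6a4 (ENSMUSG00000032572), an alpha 3-like chain that mice express, ran the other way. Its levels were 7.25 and 2.10 CPM in GNA11 Q209L, 1.03, 0.774, 1.30, 4.05 and 3.60 CPM for GNA11 Q209L Bap1 KO, and 0.315, 0.341, 0.279 and 0.262 CPM for BRAF V600E Bap1 KO. All 7 libraries with GNA11 Q209L were above all 4 with BRAF V600E, whose values lay close together. Col6a4 was 7.12-fold higher for GNA11 Q209L Bap1 KO than for BRAF V600E Bap1 KO (log2 fold change 2.83 ± 0.66 (SE), adjusted p = 0.00838) and 15.4-fold higher in GNA11 Q209L (log2 fold change 3.95 ± 0.76 (SE), adjusted p = 0.0117). The second value did not pass in 1 of 20 alternatives, without GNA11 Q209L replicate 1 (adjusted p = 0.0760). Its highest value was 7.25 CPM. Col6a5 passed in no comparison and ranged from 0 to 19.7 CPM. Col6a6 was not tested because its counts were too low outside BRAF V600E Bap1 KO replicate 4 (148 counts).

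FACIT collagens attach to fibrils and link them to other matrix. In the second comparison 3 of the 7 tested were lower and none higher (24.7% of all genes lower). With BRAF V600E Bap1 KO replicates 3 and 4 left out, 1 of 6 tested was lower and 1 higher (30.9% of all genes called). The class median was then 1.497. Col12a1 (ENSMUSG00000032332), which coats type I fibrils, had 32.6 and 75.0 CPM in GNA11 Q209L, 90.0, 15.0, 24.5, 5.09 and 6.62 CPM for GNA11 Q209L Bap1 KO, and 451, 173, 847 and 132 CPM for BRAF V600E Bap1 KO. All 4 BRAF V600E Bap1 KO libraries were above all GNA11 Q209L Bap1 KO libraries, of which replicate 1 was the highest. Col12a1 was 14.2-fold lower in GNA11 Q209L Bap1 KO (log2 fold change -3.83 ± 0.91 (SE), adjusted p = 0.00922), and it held in all 20 alternatives. Col14a1, its close relative, had 4.51, 4.26, 80.3 and 120.1 CPM for BRAF V600E Bap1 KO and 3.198 to 35.2 CPM in the other 7 libraries, and did not pass (log2 fold change -1.69 ± 1.08 (SE), adjusted p = 0.225).

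Col20a1, a FACIT chain of little known function, rested on 2 libraries. It had 14.7 and 18.5 CPM in GNA11 Q209L, 42.7, 22.5, 18.1, 18.1 and 5.84 CPM for GNA11 Q209L Bap1 KO, and 2.51, 13.2, 3165 and 558 CPM for BRAF V600E Bap1 KO. BRAF V600E Bap1 KO replicates 3 and 4 were the highest of all libraries and replicates 1 and 2 were among the lowest. The test gave a 43.6-fold lower level in GNA11 Q209L Bap1 KO (log2 fold change -5.45 ± 1.56 (SE), adjusted p = 0.0194), and without replicates 3 and 4 the sign turned, to 1.45 (adjusted p = 0.184). Col9a3, a chain of the type IX collagen of cartilage, had 1.02 and 1.03 CPM in GNA11 Q209L, 1.47, 1.27, 1.14, 1.62 and 0.501 CPM for GNA11 Q209L Bap1 KO, and 0.685, 1.26, 82.3 and 45.2 CPM for BRAF V600E Bap1 KO. Its values followed the same libraries: 27.1-fold lower in GNA11 Q209L Bap1 KO (log2 fold change -4.76 ± 1.19 (SE), adjusted p = 0.0113), and 0.29 (adjusted p = 0.735) without replicates 3 and 4. Both were also not called by limma voom (adjusted p = 0.298 and 0.340). Col9a2, another type IX chain, peaked at 7.66 CPM for BRAF V600E Bap1 KO replicate 3, and Col9a1, at most 18 counts in a library, was not tested. Col16a1, found near basement membranes and elastic fibres, had 165 and 407 CPM in GNA11 Q209L, 316, 393, 186, 156 and 337 CPM for GNA11 Q209L Bap1 KO, and 139, 47.7, 597 and 332 CPM for BRAF V600E Bap1 KO, with overlap (log2 fold change -0.01 ± 0.61 (SE), adjusted p = 0.994). Col22a1 reached at most 3.90 CPM and did not pass.

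Multiplexins are basement membrane zone collagens with heparan sulphate or chondroitin sulphate chains. Col18a1 (ENSMUSG00000001435), the source of the fragment endostatin, had 167 and 143 CPM in GNA11 Q209L, 125, 116, 67.7, 39.7 and 98.6 CPM for GNA11 Q209L Bap1 KO, and 698, 127, 696 and 312 CPM for BRAF V600E Bap1 KO. Its BRAF V600E Bap1 KO libraries were all above those of GNA11 Q209L Bap1 KO, replicate 2 only just. Col18a1 was 5.13-fold lower in GNA11 Q209L Bap1 KO (log2 fold change -2.36 ± 0.50 (SE), adjusted p = 0.00550) and kept this call in all 20 alternatives. Col15a1 had 239 and 79.0 CPM in GNA11 Q209L, 45.6, 83.5, 57.1, 56.7 and 76.8 CPM for GNA11 Q209L Bap1 KO, and 11.9, 10.8, 444 and 479 CPM for BRAF V600E Bap1 KO. BRAF V600E Bap1 KO held both its highest libraries (replicates 3 and 4) and its lowest (replicates 1 and 2), and the test was not passed (log2 fold change -1.89 ± 0.97 (SE), adjusted p = 0.136). Leaving out replicates 3 and 4 turned Col15a1 to 2.47 (adjusted p = 0.00430), a call in the other direction. Leaving out replicates 1 and 2 gave -2.81 (adjusted p = 0.00108), so its direction depends on which BRAF V600E Bap1 KO libraries are kept.

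Network collagens held the other member that was higher in GNA11 Q209L Bap1 KO. Col10a1 (ENSMUSG00000039462), known from the growth plate of bone, had 1.67 and 1.20 CPM in GNA11 Q209L, 10.6, 7.24, 5.30, 11.997 and 4.39 CPM for GNA11 Q209L Bap1 KO, and 0.191, 0.784, 2.33 and 1.22 CPM for BRAF V600E Bap1 KO. All 5 GNA11 Q209L Bap1 KO libraries were above every library of the other genotypes. Col10a1 was 7.001-fold higher for GNA11 Q209L Bap1 KO than for BRAF V600E Bap1 KO (log2 fold change 2.81 ± 0.67 (SE), adjusted p = 0.00938), a call that held in all 20 alternatives. Against GNA11 Q209L it was at 2.45 ± 0.88 with adjusted p = 0.354, so that difference did not pass although the groups did not overlap. Col8a1, a short chain of vessel walls and the cornea, had 51.5 and 44.5 CPM in GNA11 Q209L, 12.1, 4.09, 224, 9.62 and 1.09 CPM for GNA11 Q209L Bap1 KO, and 82.1, 5.69, 227 and 345 CPM for BRAF V600E Bap1 KO. GNA11 Q209L Bap1 KO replicate 3 stood far above its group, and Col8a1 passed in no comparison (log2 fold change -1.72 ± 1.39 (SE), adjusted p = 0.335 in the second). Its partner Col8a2 reached 10.2 CPM in the same replicate and also did not pass.

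The 2 collagens that tie the epidermis down, one transmembrane and one an anchoring fibril, were lower in GNA11 Q209L Bap1 KO than in BRAF V600E Bap1 KO. Col17a1, the hemidesmosome collagen of basal keratinocytes, had 1.33 and 1.83 CPM in GNA11 Q209L, 28.4, 1.49, 0.703, 1.00 and 0.190 CPM for GNA11 Q209L Bap1 KO, and 15.3, 28.0, 281 and 333 CPM for BRAF V600E Bap1 KO. It was 25.9-fold lower in GNA11 Q209L Bap1 KO (log2 fold change -4.70 ± 1.48 (SE), adjusted p = 0.0282), with GNA11 Q209L Bap1 KO replicate 1 above BRAF V600E Bap1 KO replicates 1 and 2. Without replicates 3 and 4 of the latter it was at -1.78 (adjusted p = 0.362). Col7a1 (ENSMUSG00000025650), the anchoring fibril chain that holds epidermis to dermis, had 10.3 and 14.1 CPM in GNA11 Q209L, 33.0, 2.32, 2.87, 1.57 and 2.09 CPM for GNA11 Q209L Bap1 KO, and 133, 119, 141 and 67.5 CPM for BRAF V600E Bap1 KO. There was no overlap, and Col7a1 was 13.8-fold lower in GNA11 Q209L Bap1 KO (log2 fold change -3.79 ± 0.92 (SE), adjusted p = 0.0101), as it was without replicates 3 and 4, at -3.94 (adjusted p = 0.0205). Col25a1, a chain best known from neurons, reached at most 1.29 CPM and was lower with no overlap (log2 fold change -3.35 ± 0.64 (SE), adjusted p = 0.00372); like Col2a1 it falls under the level set for naming. Col23a1 spanned 7.38 to 122 CPM for GNA11 Q209L Bap1 KO, overlapped BRAF V600E Bap1 KO at 19.4 to 80.97 CPM and did not pass (log2 fold change -0.85 ± 0.83 (SE), adjusted p = 0.424). Col13a1, found at nerve and muscle contacts, had a log2 fold change of 0.32 ± 0.57 (adjusted p = 0.669). Col28a1, a chain with von Willebrand factor domains, spanned 2.36 to 6.20, 0.605 to 21.6 and 10.5 to 85.5 CPM over the 3 genotypes and was lower in the second comparison with overlap (log2 fold change -3.08 ± 1.08 (SE), adjusted p = 0.0424), a call that held in 9 of 20 alternatives. Without BRAF V600E Bap1 KO replicates 3 and 4, Col28a1 stood at -2.08 (adjusted p = 0.2155).

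Genes that act on collagen were read from lists drawn up beside the members. Of 12 tested genes for trimming and crosslinking, 9 were lower in GNA11 Q209L Bap1 KO than in BRAF V600E Bap1 KO and none higher (24.7% of all genes lower), with a median of -2.31. Those with the smallest p-values were the lysyl oxidase Loxl4 at -5.10 (adjusted p = 0.000356), the procollagen C-proteinase enhancer Pcolce2 at -6.40 (adjusted p = 0.00128), the N-proteinases Adamts3 at -3.98 (adjusted p = 0.00395) and Adamts2 at -3.42 (adjusted p = 0.00411), Loxl1 at -2.58 (adjusted p = 0.00572) and the C-proteinase Bmp1 at -1.71 (adjusted p = 0.00659). Of 10 receptor genes, 7 were lower and none higher, with a median of -2.41. They included the discoidin receptor Ddr2 at -5.39 (adjusted p = 0.000139) and the integrin alpha chains Itga10 at -4.32 (adjusted p = 0.00144), Itga1 at -2.43 (adjusted p = 0.00208) and Itga2 at -2.38 (adjusted p = 0.00577). Of 19 tested enzymes that fold and modify chains inside the cell, 5 were higher and 3 lower (16.5% of all genes higher and 24.7% lower), with a median of 0.39. The lysyl hydroxylase Plod1 had 855, 1796, 848, 747 and 1559 CPM in GNA11 Q209L Bap1 KO and 313, 123, 102 and 93.1 CPM for BRAF V600E Bap1 KO, with no overlap. It was higher at 2.88 (adjusted p = 0.00284). Plod3 at 1.26 (adjusted p = 0.00691), the prolyl 3-hydroxylase Lepre1 at 1.28 (adjusted p = 0.0190), the galactosyltransferase Glt25d1 at 0.72 (adjusted p = 0.0197) and Crtap at 1.11 (adjusted p = 0.0209) were also higher, and the prolyl 4-hydroxylase chain P4ha2 was lower at -1.31 (adjusted p = 0.0235). In the first comparison 0 genes of these 3 lists passed, with 6 of the 12, 3 of the 10 and 2 of the 19 at an unadjusted p under 0.05, against 11.4% of all genes.

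Markers of other cell types are given beside the collagens. The 12 fibroblast markers summed to 1574 and 386 CPM in GNA11 Q209L, 269, 312, 96.0, 126 and 114 CPM for GNA11 Q209L Bap1 KO, and 2880.2, 2599, 4231 and 3196 CPM for BRAF V600E Bap1 KO. Of these 12, 11 were lower in GNA11 Q209L Bap1 KO than in BRAF V600E Bap1 KO (24.7% of all genes lower). None was at 0 in a whole genotype. The fibrillar sum over the fibroblast sum was 7.14 and 8.98 in GNA11 Q209L, 10.4, 5.62, 7.69, 6.05 and 5.43 in GNA11 Q209L Bap1 KO and 0.719, 0.825, 4.29 and 3.42 in BRAF V600E Bap1 KO. All 4 BRAF V600E Bap1 KO libraries were therefore below the other 7 in fibrillar CPM per fibroblast marker CPM. The 9 Schwann markers summed to 61.2, 71.2, 1652 and 837 CPM for BRAF V600E Bap1 KO and 354 to 597 CPM in the others, none at 0 throughout. The 12 keratinocyte markers summed to 30.4 and 24.9 CPM in GNA11 Q209L, 1749, 21.3, 19.5, 11.04 and 13.5 CPM for GNA11 Q209L Bap1 KO, and 869, 947, 14514 and 5298 CPM for BRAF V600E Bap1 KO. In the second comparison 6 of 12 were lower (24.7% of all genes lower), and Krt1 was at 0 in both GNA11 Q209L libraries. GNA11 Q209L Bap1 KO replicate 1, with most of these markers in its genotype, also had its highest Col17a1, Col7a1, Col12a1 and Col28a1. These genes were not alone in that. The same library was the highest of its genotype for Col1a1, Col1a2, Col3a1, Col5a1, Col5a2, Col6a3, Col18a1, Col20a1 and Col27a1, among others. It also had the highest collagen sum, at 5478 CPM.

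**Figure D5:**
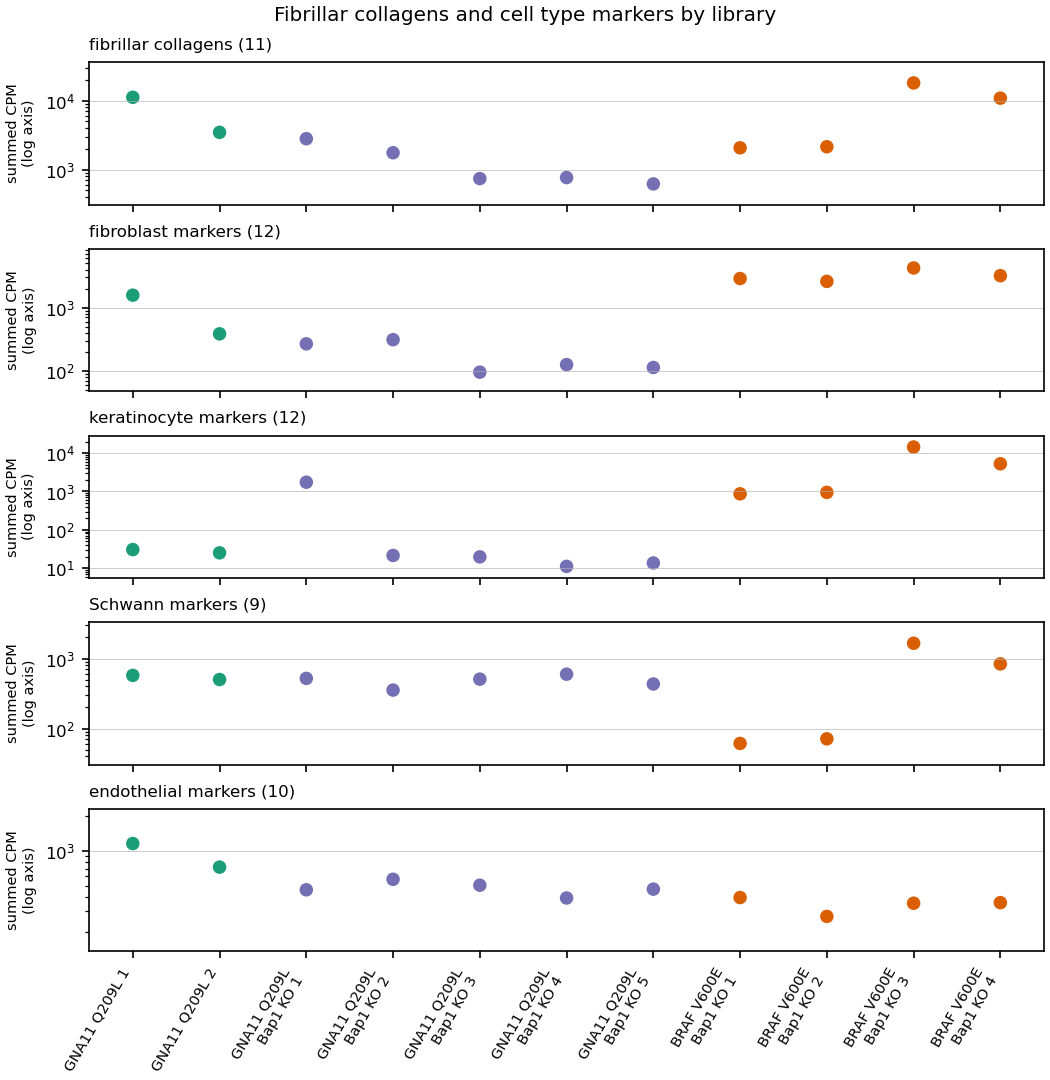
Summed CPM per library on log axes for the 11 fibrillar collagens and for markers of fibroblasts, keratinocytes, Schwann cells and endothelium, with the 11 libraries along the horizontal axis and colours by genotype. BRAF V600E Bap1 KO replicates 1 and 2 have fibroblast marker sums of 2880 and 2599 CPM, near those of replicates 3 and 4, but far lower fibrillar sums.

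Endothelial markers (10) summed to 1157 and 723 CPM in GNA11 Q209L, 460.0, 567, 504, 391 and 466 CPM for GNA11 Q209L Bap1 KO, and 394, 270.4, 352 and 356 CPM for BRAF V600E Bap1 KO, with 1 of 10 higher in the second comparison (16.5% of all genes higher). The 6 cartilage and bone markers that were found summed to 651, 148, 6.69 and 4.50 CPM for BRAF V600E Bap1 KO and to at most 6.23 CPM in the other libraries. In GNA11 Q209L Bap1 KO the sum was 0.434 to 1.19 CPM: Lect1 and Sp7 were at 0 in all 5 libraries and the other 4 markers were found. Lect1 was also at 0 in both GNA11 Q209L libraries. Macrophage, pericyte and smooth muscle, and adipocyte markers spanned 218 to 6962, 282 to 1128 and 9.66 to 392 CPM over the 11 libraries, with none at 0 in a whole genotype. Salivary gland and skeletal muscle markers reached 174790 and 7254 CPM for BRAF V600E Bap1 KO replicate 4. In the second comparison 9 of 10 skeletal muscle, 7 of 8 adipocyte, 4 of 5 cartilage and bone and 3 of 4 salivary gland markers were lower. So were 2 of 10 macrophage, 2 of 10 pericyte and smooth muscle and 2 of 9 Schwann markers (24.7% of all genes lower). Of the melanocyte markers 9 of 10 were higher (16.5% of all genes higher). The part of these cell types in the collagen differences was not tested.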

How the data were processed

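RNA was sequenced from 11 skin tumours of 3 genotypes, grouped by their genotype labels. The authors deposited 1 table of estimated counts per gene, not normalised. The submitters' processing notes name STAR and mm9. The sources used here do not give the counting program, annotation or strand handling, so reads of overlapping or antisense genes may be mixed. Of 18769 lines, 7 repeats and 6 transgene sequences were kept out. No column was left unmapped.

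Genotypes were compared with the quasi-likelihood test of edgeR (version 4.0.16 in R 4.3.3) on all 11 libraries, with TMM scaling, the default expression filter by genotype (17350 genes, 40 of 42 members), two-sided p-values and Benjamini-Hochberg adjustment over every tested gene (threshold 0.05). SE is the log2 fold change over the root of its F statistic. DESeq2 1.42.0 and limma voom 3.58.1 were alternatives. The alternatives also changed scaling and filter, used only the genotypes compared, left out each library, summed libraries sharing a number and took Xist as a covariate. CPM per kb used exon lengths of GENCODE by gene ID. Counting floors cover counting error only.

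Members and lists were chosen with earlier results of these data known. Values are given for members whose average log2 CPM reached 4, or 0 where called, and per library from 6 or where among the 5 largest called changes in a direction. No protein sequences were used. Replicate values are listed in replicate order.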

Additional observations from a re-analysis of the deposited data

Results flagged for a closer look

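Single libraries stood far from the rest of their genotype for 9 of the 60 gene and genotype groups checked (Dixon's criterion at 95% for groups of 4 or 5 libraries, 15.0%). The criterion assumes normally distributed values and was applied to unlogged CPM. The groups also share libraries, so the 15.0% cannot be set against a chance rate. GNA11 Q209L Bap1 KO replicate 1 was high for 4 of them: Col12a1 (90.0 CPM, next 24.5 CPM), Col17a1 (28.4 CPM, next 1.49 CPM), Col28a1 (21.6 CPM, next 1.57 CPM) and Col7a1 (33.0 CPM, next 2.87 CPM). Its keratinocyte markers summed to 1749 CPM, against 11.04 to 21.3 CPM in the other 4 libraries of the genotype, and the part of those cells in the 4 values was not tested. Replicate 3 of the same genotype was high for the transmembrane chain Col23a1 (122 CPM, next 15.1 CPM) and the network chain Col8a1 (224 CPM, next 12.1 CPM). Replicate 4 was low for the basement membrane chain Col4a1 (375 CPM, next 593 CPM). BRAF V600E Bap1 KO replicate 3 was high for the fibrillar chains Col11a1 (44.8 CPM, next 10.2 CPM) and Col5a3 (1003 CPM, next 171 CPM).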

How the results depend on the processing

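No paired analysis was possible because the labels give the libraries no replicate numbers shared between genotypes. For GNA11 Q209L Bap1 KO against GNA11 Q209L, 0 members were called in the test as reported and in each of the 20 alternatives. For GNA11 Q209L Bap1 KO against BRAF V600E Bap1 KO the count was 22 and ran from 15 to 25 over the alternatives that kept all libraries. With 1 library left out it ran from 12 (without BRAF V600E Bap1 KO replicate 3) to 25, with 13 and 14 without GNA11 Q209L Bap1 KO replicates 2 and 4. Leaving out BRAF V600E Bap1 KO replicates 3 and 4 together gave 11 (30.9% of all genes), and leaving out replicates 1 and 2 together gave 28 (37.7%); both settings were chosen after seeing the data. The first of them turned the sign of 14 of the 38 members tested in both. Of the 14, 5 were called in one of these 2 fits: Col1a2, Col20a1 and Col9a3 with all libraries, and Col15a1 and Col9a2 without replicates 3 and 4, Col9a2 at 3.27 (adjusted p = 0.0119) and outside the naming rule. Without replicates 3 and 4 Col4a4 was also called higher, at 4.19 (adjusted p = 0.00452). Without replicates 3 and 4 the turned named genes stood at 1.87 for Col14a1, 2.47 (adjusted p = 0.00430) for Col15a1, 1.54 for Col16a1, 0.24 for Col1a2, 1.45 for Col20a1, 0.61 for Col4a1, 0.20 for Col5a1, 0.84 for Col5a3, 0.14 for Col8a1 and 0.29 for Col9a3. Col16a1 turned to 0.021 by DESeq2 and with its size factors in edgeR, 0.43 by limma voom and 0.19 with Xist as a covariate, with no call. With 1 library left out Col16a1 from -0.36 to 0.67 and Col5a3 from -1.91 to 0.16 crossed 0. Between GNA11 Q209L and BRAF V600E Bap1 KO the count was 2, with 9 by DESeq2, 1 with Xist as a covariate, 0 (without GNA11 Q209L replicate 1) to 4 with 1 library left out, 6 without BRAF V600E Bap1 KO replicates 3 and 4 and 5 without replicates 1 and 2. There Col15a1 became 3.76 (adjusted p = 0.00286) and Col5a3 2.35 (adjusted p = 0.0218) without replicates 3 and 4. Col15a1 turned to 0.87 by limma voom, with no call. Col5a3 turned to 0.0020 by DESeq2 and with its size factors in edgeR, 0.94 by limma voom, 0.071 with only the genotypes compared and 0.060 with libraries that share a number summed, with no call. With 1 library left out Col15a1 from -1.58 to 0.038 and Col5a3 from -0.38 to 1.70 crossed 0. In the first comparison no gene that turned was called in either setting. Limma voom turned Col14a1 to -0.44, Col17a1 to -0.41, Col20a1 to -0.048, Col23a1 to -0.33, Col28a1 to -1.05 and Col8a1 to -2.69. Xist as a covariate turned Col14a1 to -0.58, Col16a1 to 0.26 and Col4a2 to 0.039. Summing libraries that share a number turned Col28a1 to -0.17. With 1 library left out, Col11a2 from -0.95 to 0.29, Col14a1 from -0.68 to 1.91, Col16a1 from -0.55 to 0.83, Col17a1 from -0.94 to 2.31, Col20a1 from -0.042 to 0.61 and Col23a1 from -0.81 to 1.04 crossed 0, as did Col28a1 from -1.91 to 1.21, Col4a2 from -0.60 to 0.075, Col4a6 from -1.45 to 4.86, Col6a4 from -1.70 to 0.041 and Col8a1 from -2.86 to 0.36. The cause of these changes was not tested. Over the 30 named genes in the second comparison, 479 gene and setting pairs kept direction and side of the threshold, 87 lost the call, 13 gained it and 20 turned. Over all members 33 of 793 pairs turned, 5 of them called in either setting. Where 1 GNA11 Q209L library was left out, the other was assumed to vary like the other genotypes. Leaving out BRAF V600E Bap1 KO replicates 3 and 4 moved the median of all genes by 0.18 (log2) in the second comparison and 0.16 in the third, limma voom by 0.11 and 0.14, leaving out replicates 1 and 2 by 0.17 and 0.13, and leaving out GNA11 Q209L replicate 1 by 0.11 in the first and -0.28 in the third. Over all genes, the first comparison called 5, with 428 by DESeq2, 64 with only its own genotypes, and 0 to 13 with 1 library left out (0 or 1 without any library of the genotypes compared). The third called 2637, with 5425 by DESeq2, 417 with only its own genotypes, and 1078 and 265 without GNA11 Q209L replicate 1 and 2. Genes under about 3 counts in a library are at the limit of depth.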
